A study of Homo sapiens with 2 samples.

Results

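Actin filaments give a cell its shape and its grip, and the 38 genes described here build, cut, bundle and anchor them. The genes were taken by symbol, by a rule that uses no measured value, but the list was chosen with earlier results of these data known. All 38 of 38 symbols were found among the 16005 genes of the authors' deposited table. They comprise 2 actins, 5 genes for monomer binding and severing, 8 for the Arp2/3 complex, 4 for crosslinkers, 8 for tropomyosins and the calponin family, 4 for non-muscle myosin II and 7 for focal adhesions. The cells were BE(2)-C, an established line and a single clone from a human neuroblastoma that carries many copies of MYCN, labelled wild type here. Polyadenylated RNA was sequenced after 7 days of growth in EMEM/F12, a conventional mixture, or in HPLM, whose small molecules follow those of human plasma. Both media held 10% fetal bovine serum and 1% penicillin-streptomycin. Each medium has 1 listed sample, and the table holds 3 libraries for each. The labels do not tell if the 3 libraries are separate cultures, and p-values here reflect only how far libraries spread, which may be technical.

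Actin monomers join into filaments that grow mainly at one end, and profilins and cofilins feed and take apart this cycle. The Arp2/3 complex starts side branches, tropomyosins coat unbranched filaments, and non-muscle myosin II pulls on them. At focal adhesions talin and vinculin tie filaments to integrins, and kinases signal from there. Many of these genes are known targets of the serum response factor SRF, which binds a DNA element called the CArG box and is switched on when its cofactors, the MRTF proteins, are freed from actin monomers.

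Libraries held 17504237 to 21676080 reads, which sets the counting error. All 11 of the neuroblastoma marker genes looked for had reads in every library. Of 6 endothelial and 6 blood markers only TEK and CD14 stood in the table, with 7 of 8 smooth muscle, 3 of 6 Schwann and 5 of 6 epithelial markers, and 4 of those 5 epithelial markers rose in HPLM. EMEM/F12 library 3 stood apart from libraries 1 and 2 of its medium. For genes with a mean of at least 100 normalised reads, 2.23% lay at least 1.5 times above the mean of those libraries and 0.145% lay as far below. The summed reads of the 11 neuroblastoma markers were 184222 and 182528 in EMEM/F12 libraries 1 and 2, 155242 in library 3 and 92637 to 94875 in HPLM. All 9 fibroblast markers were in the table and none was at 0, and 6 of the 9 lay at least 1.5 times higher in EMEM/F12 library 3. Their summed reads were 44847 and 46998 in EMEM/F12 libraries 1 and 2, 93337 in library 3 and 74760.3 to 82279 in HPLM. The actin and adhesion genes that moved with this library are given with and without it below.

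The words rose and fell are used for genes with an adjusted p under 0.05 in the authors' deposited table. That threshold was passed by 26.8% of 16004 tested genes as higher in HPLM, by 28.8% as lower and so by 55.6% in all. Counts of members by role below are to be read beside these shares of all genes. Among the 38 members, 18 fell, 8 rose and 12 were not called. The median log2 fold change in the authors' deposited table was -0.11 for the members and 0.01 for all genes tested. By a log2 fold change of at least 0.5, 2 members rose and 7 fell, where 14.5% of all genes rose and 16.2% fell by that much. Without EMEM/F12 library 3, 13 rose and 18 fell by DESeq2, beside 29.3% and 30.4% of all genes (59.8% together). The libraries of the media did not overlap for 30 of the 38, with 10 higher and 20 lower in HPLM, against 33.6% and 35.0% of all genes (68.6% together). Together the members took 1.90%, 1.92% and 2.01% of gene reads in EMEM/F12 libraries 1, 2 and 3 and 1.75%, 1.73% and 1.72% in HPLM libraries 1, 2 and 3.

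**Figure D1:**
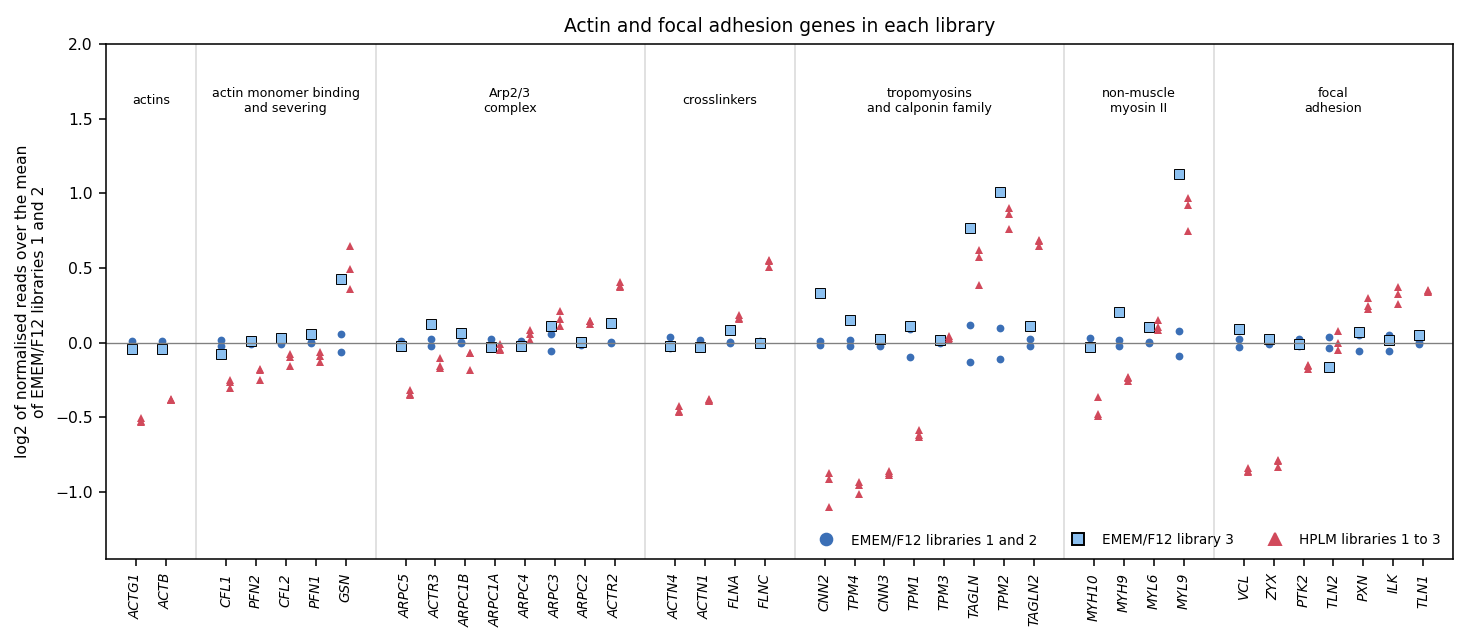
Each point is 1 library, drawn as the log2 of its normalised reads over the mean of EMEM/F12 libraries 1 and 2, for the 38 genes grouped by role. VCL, ZYX, CNN2, CNN3, TPM1 and TPM4 lie well below 0 in all HPLM libraries, and EMEM/F12 library 3 (square) lies with the HPLM libraries for TPM2, TAGLN and MYL9.

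The promoters that hold a CArG box are shown first. This search was chosen with earlier results of these data known. RefSeq promoters (GRCh38.p14, 250 bases before to 50 after each start) matched 32 of the 38 members, with 53 promoters in all, and had no entry for ACTB, ARPC1B, MYL9, PFN2, PTK2 and TAGLN. A CArG box was searched as CC, then 6 letters that are each A or T, then GG, a pattern that reads the same on both strands. It was in 5 of the 53 promoters (9.43%) and in 1.29% of all 35116 promoters. By gene, it was in 5 of 32 members (15.6%) and in 1.60% of all genes with a promoter. The 5 stretches of 100 bases below run 5′ to 3′ on the strand of the gene, on GRCh38.p14, with the CArG box in capitals.
ACTG1 (minus strand, chr17:81512839-81512938): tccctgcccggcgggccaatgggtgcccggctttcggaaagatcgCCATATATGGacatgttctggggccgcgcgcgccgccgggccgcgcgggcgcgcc
TPM4 (plus strand, chr19:16067320-16067419): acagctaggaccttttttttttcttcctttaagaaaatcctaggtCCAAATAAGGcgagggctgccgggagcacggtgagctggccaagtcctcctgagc
CNN2 (plus strand, chr19:1026474-1026573): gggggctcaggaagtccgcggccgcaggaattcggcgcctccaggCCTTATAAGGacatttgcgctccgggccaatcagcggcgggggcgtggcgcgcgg
ACTN1 (minus strand, chr14:68977683-68977782): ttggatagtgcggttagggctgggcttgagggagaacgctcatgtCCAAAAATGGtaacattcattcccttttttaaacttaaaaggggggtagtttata
FLNA (minus strand, chrX:154374674-154374773): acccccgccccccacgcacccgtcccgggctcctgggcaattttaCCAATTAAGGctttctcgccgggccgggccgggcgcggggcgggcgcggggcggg
The boxes begin 94 bases before the start in ACTG1, 173 in TPM4, 89 in CNN2, 171 in ACTN1 and 94 in FLNA. In ACTN1 and TPM4 the promoter shown is 1 of several. The first 4 of these genes fell in HPLM and FLNA rose, where 18 of all 38 members and 28.8% of all genes fell. No box was found in the promoters searched for VCL, ZYX, CNN3, TPM1, ACTN4, MYH9, MYH10, CFL1, PFN1, ACTR3 and ARPC5, which also fell. The box was in 4 of 24 promoters of members that fell and in 1 of 12 of those that rose. It was in 0 of 17 promoters of members not called. Any part of SRF in these changes was not tested. The core GGAATG bound by TEAD factors, which act with the tension-sensitive protein YAP, was searched for comparison. Searched on both strands, it was in 8 of 53 member promoters (15.1%) and in 14.0% of all promoters, and by gene in 8 of 32 members (25.0%) and in 16.7% of all genes with a promoter. A match describes the letters and says nothing of binding.

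Both cytoplasmic actin genes fell in HPLM, ACTG1 by more than ACTB. In EMEM/F12 libraries 1, 2 and 3, ACTB (ENSG00000075624, chromosome 7, 5527147 to 5563784 on GRCh38), which encodes beta-actin, had 93870.1, 95271 and 91727 normalised reads, and in HPLM libraries 1, 2 and 3 it had 72636, 72764 and 72376 (log2 ratio -0.37 ± 0.02). ACTG1 (ENSG00000184009, chromosome 17, 81509971 to 81523847), which encodes the nearly identical gamma-actin, had 72847, 74015 and 71277 normalised reads in EMEM/F12 and 51769.8, 50849 and 51100.2 in HPLM (log2 ratio -0.50 ± 0.02). For both, every HPLM library lay below every EMEM/F12 library, and EMEM/F12 library 3 lay close to libraries 1 and 2. In the authors' deposited table ACTB had an adjusted p of 2.07e-29 and ACTG1 one of 6.31e-53. Within a library, where no scaling enters, the log2 ratio of ACTB to ACTG1 reads was 0.37, 0.36 and 0.36 in EMEM/F12 and 0.49, 0.52 and 0.50 in HPLM. GENCODE release 29 names 10 pseudogenes of ACTB and 20 of ACTG1, and the coding sequences of the genes are alike, so the split of reads between them is uncertain. In polyadenylated RNA from a culture, less RNA per cell and fewer cells of one kind cannot be told apart.

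Per kilobase of annotated exon, the actins stood far above all other members. In EMEM/F12 the level of ACTB was 26605 ± 507 (SD, n = 3 libraries) normalised reads per kilobase and that of ACTG1 was 24294 ± 459. PFN1 came next at 4333 ± 103, then FLNA at 3909 ± 136 and CFL1 at 3378 ± 114. GSN was lowest at 4.30 ± 0.78 normalised reads per kilobase. In HPLM the order of PFN1 and FLNA was exchanged, at 4009 ± 98.8 and 4305 ± 42.9. Of the 37 neighbouring pairs in the EMEM/F12 order, 15 overlapped between libraries, among them MYH9 and ZYX, and TPM4 and MYL6, so those do not differ beyond their spread. Exons of all annotated transcripts were joined for the length, which lowers the level of genes with long rare exons.

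Of the 5 genes for proteins that bind actin monomers or cut filaments 3 fell, CFL1 the most, and none rose. CFL1, which encodes the main cofilin outside muscle, fell from 20432, 19879 and 19104 normalised reads to 16768, 16304 and 16948 (log2 ratio -0.25 ± 0.03). PFN2, which encodes the neuronal profilin, fell from 3082, 3121 and 3124 to 2739, 2749 and 2613 normalised reads (log2 ratio -0.20 ± 0.02). In both, the HPLM libraries were all lower than the EMEM/F12 libraries. PFN1, the widely expressed profilin gene, fell by 7.5% (log2 ratio -0.11 ± 0.03), a call lost by edgeR (adjusted p 0.0648), without HPLM library 3 and with the library number as a block. The muscle-type cofilin gene CFL2 (log2 ratio -0.12 ± 0.03) and the severing protein gene GSN (0.35 ± 0.17), which had 40.7 to 66.5 normalised reads in any library, did not pass.

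The 8 genes for the Arp2/3 complex did not move together. ACTR2 and ACTR3, which encode the pair of actin-related proteins at its core, went in opposite directions. ACTR2 rose from 3721, 3699.6 and 4070.3 normalised reads to 4801, 4919 and 4824 (log2 ratio 0.34 ± 0.05). ACTR3 fell from 2062, 2132 and 2289 to 1955, 1880.2 and 1863 (log2 ratio -0.19 ± 0.05). All HPLM libraries lay above the EMEM/F12 libraries for ACTR2 and below them for ACTR3. Of the smaller subunits, ARPC5 fell from 2477, 2441 and 2419 to 1933, 1970.4 and 1934 normalised reads (log2 ratio -0.33 ± 0.01). ARPC2 rose from 3897, 3976 and 3951 to 4359, 4299.8 and 4354 (log2 ratio 0.14 ± 0.01), and this call was lost when libraries were scaled to spike-ins. ARPC1A (-0.02 ± 0.02), ARPC1B (-0.13 ± 0.04), ARPC3 (0.12 ± 0.06) and ARPC4 (0.06 ± 0.02) did not pass. The sign for ARPC1A turned with edgeR and that for ARPC4 with spike-in scaling, and ARPC3 passed as higher with edgeR and without EMEM/F12 library 3. The exons of ARPC4 overlap a read-through gene and a neighbour on the other strand, both of them in the table, and the libraries were made with a kit that keeps no strand.

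Crosslinkers split by family, with both filamins higher and both alpha-actinins lower. FLNC, which encodes the filamin best known from muscle, rose from 14930.4, 15103 and 14988 normalised reads to 21910.1, 21325 and 22081 (log2 ratio 0.54 ± 0.02). FLNA, the widely expressed filamin gene, rose from 40614, 40479 and 43039 to 46083, 45228 and 45388 (log2 ratio 0.14 ± 0.03), and was not called with spike-in scaling (0.08, adjusted p 0.154). Within a library the log2 ratio of FLNA to FLNC was 1.44, 1.42 and 1.52 in EMEM/F12 and 1.07, 1.08 and 1.04 in HPLM, so that the share of FLNC was larger in each HPLM library. ACTN1 fell from 14947, 15338 and 14809.7 normalised reads to 11558, 11652 and 11584 (log2 ratio -0.37 ± 0.02). ACTN4 fell from 7992, 8409 and 8085 to 6119, 5987 and 5953 (log2 ratio -0.44 ± 0.03). These encode the alpha-actinins of non-muscle cells, which bundle filaments at adhesions and stress fibres, and their libraries did not overlap between the media. The authors' deposited table gives FLNC an adjusted p of 1.28e-53 and ACTN4 one of 1.19e-26.

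The deepest falls among the 38 genes, those of CNN2 and TPM4, were in the tropomyosins and the calponin family, where 4 of 8 fell and 1 rose. TPM4 (ENSG00000167460, chromosome 19, 16067021 to 16103005), which encodes a short tropomyosin of non-muscle cells, fell from 10383, 10676 and 11697 normalised reads to 5441, 5524 and 5220.3 (log2 ratio -1.02 ± 0.06, adjusted p 1.12e-94 in the authors' deposited table) and so fell by 50.6%. TPM1 fell from 4604, 5248 and 5311 to 3207, 3286 and 3185 (log2 ratio -0.65 ± 0.07). TPM3 had 6428, 6475 and 6548 in EMEM/F12 and 6522, 6591 and 6645 in HPLM and did not pass (log2 ratio 0.02 ± 0.01), and its sign turned with spike-in scaling. The order of TPM3 and TPM4 was exchanged between the media. The log2 ratio of TPM3 to TPM4 reads within a library was -0.69, -0.72 and -0.84 in EMEM/F12 and 0.26, 0.25 and 0.35 in HPLM. Per kilobase, TPM4 had 1265 ± 79.9 and TPM3 773 ± 7.17 normalised reads in EMEM/F12, against 625 ± 18.2 and 785 ± 7.31 in HPLM.

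Calponins bind actin and tropomyosin, and transgelins are their smaller relatives. CNN2 fell from 1907, 1943 and 2424 normalised reads to 1052, 1022 and 899 (log2 ratio -1.08 ± 0.13), and EMEM/F12 library 3 was the highest of the 6. CNN3 fell from 3061, 3161 and 3159 to 1698, 1719 and 1683 (log2 ratio -0.88 ± 0.02). TAGLN2 went the other way, from 4677, 4518 and 4979 to 7365, 7408 and 7210.5 (log2 ratio 0.63 ± 0.04), the largest rise among the 38 with all 6 libraries. CNN2 has 11 named pseudogenes in GENCODE release 29, so its value is uncertain. In the authors' deposited table the adjusted p was 8.46e-35 for CNN2, 3.07e-66 for CNN3 and 3.32e-43 for TAGLN2.

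TPM2, TAGLN and MYL9, genes abundant in contractile smooth muscle, depended on a single library. TAGLN and MYL9 are given here because their values turned on that library, which was seen in the data. TPM2 had 963, 1111 and 2089 normalised reads in EMEM/F12 libraries 1, 2 and 3 and 1880.5, 1936 and 1753 in HPLM. TAGLN had 887, 1055 and 1655 in EMEM/F12 and 1489.9, 1446 and 1270.4 in HPLM. MYL9, which encodes a regulatory light chain of myosin II, had 713, 801 and 1657 in EMEM/F12 and 1483, 1434 and 1270.4 in HPLM. In each case EMEM/F12 libraries 1 and 2 were the lowest of the 6 and library 3 was the highest. The log2 ratios over all libraries were 0.42 ± 0.37 for TPM2, 0.23 ± 0.29 for TAGLN and 0.40 ± 0.42 for MYL9, and none passed. Without EMEM/F12 library 3 all of them rose by DESeq2, with log2 fold changes of 0.84 ± 0.07 for TPM2 (adjusted p 1.47e-35), 0.53 ± 0.13 for TAGLN (adjusted p 7.77e-05) and 0.88 ± 0.08 for MYL9 (adjusted p 1.95e-29).

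These were the 3 of 37 members with a mean of at least 100 that lay at least 1.5 times higher in EMEM/F12 library 3, and no member lay as far below. The ratio of library 3 to the mean of libraries 1 and 2 was 2.19 for MYL9, 2.01 for TPM2 and 1.7 for TAGLN. The ratio of the HPLM mean to the same libraries was 1.84, 1.79 and 1.44. Fibroblast collagen genes had ratios of the same order, with COL1A1 at 2.44 in EMEM/F12 library 3 and 2.09 in HPLM, and COL3A1 at 3.52 and 3.03. Of the 9 fibroblast markers 3 did not share this, namely PDGFRB (0.919 in library 3 and 0.35 in HPLM), LUM (0.98 and 0.504) and THY1 (0.941 and 1.05). From the other actin and adhesion genes, MYLK, which encodes the kinase of the myosin light chain, had ratios of 2.2 and 1.81, and the smooth muscle actin gene ACTG2 had 2.31 and 2.05. ACTA2, the vascular smooth muscle actin gene, had 1.18 and 1.01. Of the 7 smooth muscle markers in the table, 2 lay at least 1.5 times higher in EMEM/F12 library 3. They were LMOD1 (2.73 and 2.09) and MYOCD (2.77 and 2.29). Besides ACTA2, CNN1 (1.35 and 0.694), MYH11 (0.734 and 1.04), RGS5 (0.956 and 0.956) and SYNPO2 (0.908 and 0.767) did not. Of the 148 other actin and adhesion genes, at any mean, 19 lay that far above, beside 2.23% of all genes with a mean of at least 100. The part of other cells in these values was not tested.

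**Figure D2:**
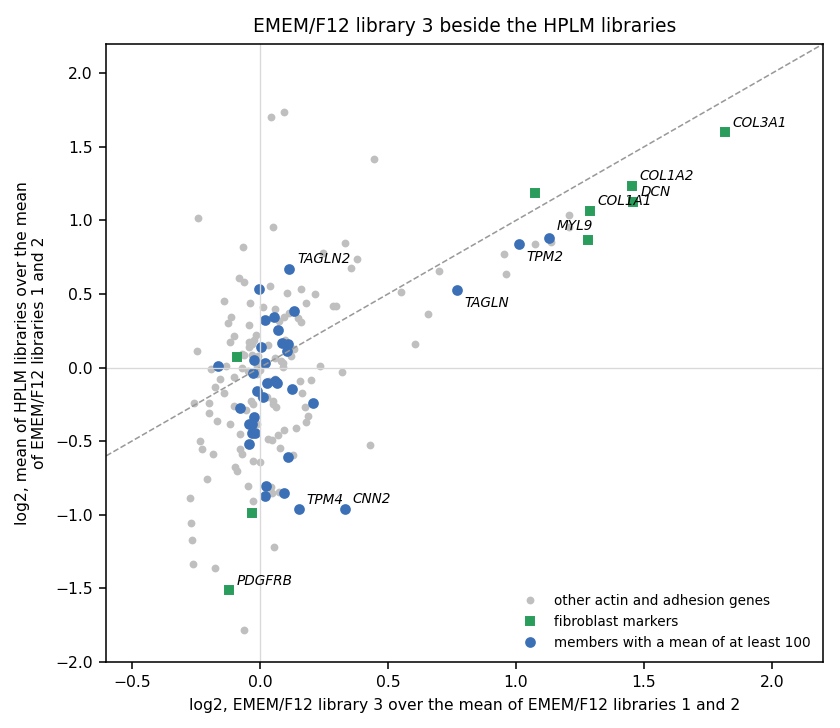
For each gene the horizontal axis gives the log2 of EMEM/F12 library 3, and the vertical axis the log2 of the HPLM mean, both over the mean of EMEM/F12 libraries 1 and 2. The dashed line marks equal values. MYL9, TPM2 and TAGLN lie to the right with COL1A1, COL1A2, COL3A1 and DCN, while most members lie near 0 on the horizontal axis.

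Of the non-muscle myosin II genes among the members, the heavy chain genes MYH9 and MYH10 fell, and the light chain genes MYL6 and MYL9 did not pass. MYH9 had 19211, 19731 and 22457 normalised reads in EMEM/F12 and 16627, 16555 and 16279 in HPLM (log2 ratio -0.31 ± 0.07). MYH10, which encodes the isoform typical of neurons, had 3453, 3592 and 3449 and 2741, 2535 and 2502 (log2 ratio -0.43 ± 0.05). The libraries did not overlap for either, and MYH9 was highest in EMEM/F12 library 3. The log2 ratio of MYH9 to MYH10 within a library was 2.48, 2.46 and 2.70 in EMEM/F12 and 2.60, 2.71 and 2.70 in HPLM, and these overlapped. MYL6, the essential light chain gene (log2 ratio 0.08 ± 0.04), passed as higher by edgeR and without EMEM/F12 library 3 (0.11 ± 0.04, adjusted p 0.00331). Its exons overlap those of MYL6B and SMARCC2, so its reads are uncertain.

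**Figure D3:**
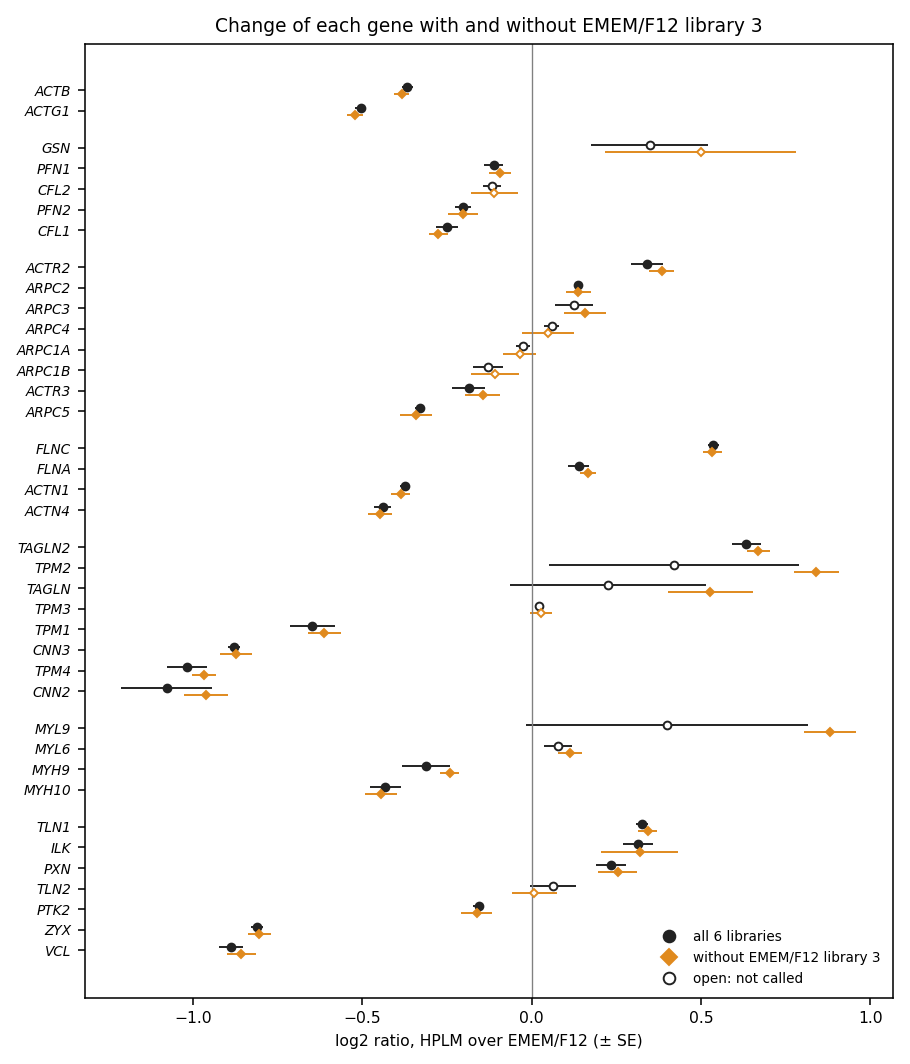
Black circles give the log2 ratio of HPLM over EMEM/F12 with its SE propagated from the SDs over 3 libraries, and orange diamonds the DESeq2 log2 fold change and SE without EMEM/F12 library 3, with open symbols for genes not called. TPM2, TAGLN and MYL9 have the widest bars and move to the right without that library, while VCL, ZYX, CNN3 and TPM4 hold their place.

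Among focal adhesion genes the filament-binding partners VCL and ZYX fell, while the talin gene TLN1 rose. VCL (ENSG00000035403, chromosome 10, 73995193 to 74121363), which encodes vinculin, fell from 3972, 4116 and 4316 normalised reads to 2257, 2232 and 2219.9 (log2 ratio -0.89 ± 0.04). ZYX, which encodes zyxin, a LIM protein of tense adhesions, fell from 7434, 7534 and 7602 to 4326, 4348 and 4205 (log2 ratio -0.81 ± 0.02). TLN1, which encodes the talin that links integrins to actin, rose from 8289.7, 8372 and 8649 to 10542, 10575 and 10614 (log2 ratio 0.33 ± 0.02). In all 3 the libraries of the media were far apart and EMEM/F12 library 3 stayed with its own medium. For VCL the authors' deposited table gives an adjusted p of 7.67e-70, for ZYX 4.96e-88 and for TLN1 1.71e-17. TLN2, the second talin gene, did not pass (log2 ratio 0.06 ± 0.07).

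The adhesion scaffold and kinase genes moved less. PXN, which encodes the scaffold paxillin, rose by 17.6% (log2 ratio 0.23 ± 0.04). ILK, which encodes the pseudokinase integrin-linked kinase, rose from 280.3, 301 and 295 normalised reads to 376, 364 and 348 (log2 ratio 0.31 ± 0.04). The authors' deposited table gives it an adjusted p of 0.0107, a call that was lost without HPLM library 1 and with the library number as a block. PTK2, which encodes focal adhesion kinase, fell from 2630.3, 2714 and 2651 to 2366, 2413 and 2394 (log2 ratio -0.16 ± 0.02). For these 3 genes no HPLM library reached into the EMEM/F12 range. The exons of VCL, ZYX, TLN1, PXN and ILK each overlap a gene of the table on the other strand, and strand was not marked. Over all 38 members, 24 share exon bases with another annotated gene and 14 have named pseudogenes, and 8 have neither.

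Within a library, 8 of the 13 pairs of relatives examined had ratios that did not overlap between the media. For single genes, 68.6% of all genes did not overlap, and no share was computed for other pairs, so the count marks nothing particular to these pairs. The pairs that shifted most were TPM1 to TPM2 and TPM3 to TPM4. The log2 ratio of TPM1 to TPM2 was 2.26, 2.24 and 1.35 in EMEM/F12 and 0.77, 0.76 and 0.86 in HPLM, with EMEM/F12 library 3 nearest to HPLM. TLN1 to TLN2 was 2.96, 2.91 and 3.15 in EMEM/F12 and 3.28, 3.32 and 3.21 in HPLM. ACTN1 to ACTN4 differed by 0.07 ± 0.02 and PFN1 to PFN2 by 0.09 ± 0.02 on the log2 scale, HPLM minus EMEM/F12. These ratios are descriptions and were not tested.

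**Figure D4:**
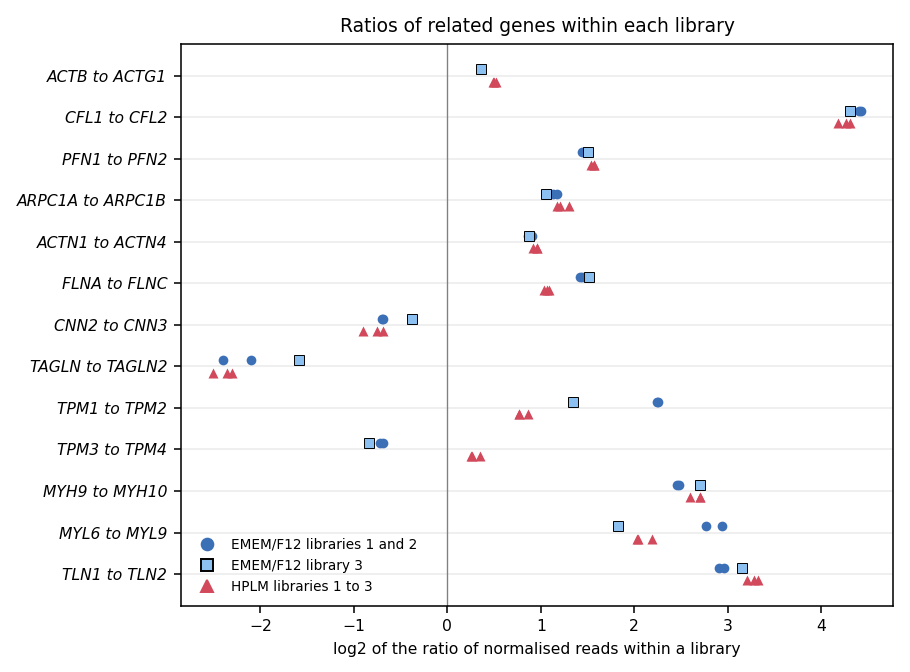
Each point is the log2 ratio of normalised reads of a pair of related genes within 1 library, for 13 pairs. TPM3 to TPM4 lies below 0 in all EMEM/F12 libraries and above 0 in all HPLM libraries, and for TPM1 to TPM2 EMEM/F12 library 3 (square) lies between the other EMEM/F12 libraries and HPLM.

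Further genes of actin and adhesion control, in 7 lists with 148 genes in the table, moved in both directions, with 37 higher and 52 lower. These were 25.0% and 35.1%, beside 26.8% and 28.8% of all genes tested. Without EMEM/F12 library 3 the shares of all genes were 29.3% and 30.4%. The counts for single lists that follow are to be read beside these shares of all genes. SRF itself fell from 4376, 4383 and 3795 normalised reads to 2605, 2578 and 2592 (log2 ratio -0.69 ± 0.07). Its cofactor genes MKL1 (log2 ratio 0.11 ± 0.04) and MKL2 (0.17 ± 0.06), which encode the MRTF proteins, did not pass. Of the 9 genes in the SRF and MRTF list 1 rose, the SRF partner gene ELK4 (0.33 ± 0.07), and 3 fell, including FHL2 (-0.46 ± 0.06). Without EMEM/F12 library 3, 2 rose and 3 fell, the added rise being that of the cofactor gene MYOCD. MYOCD had 16.5, 20.9 and 51.9 normalised reads in EMEM/F12 and 47.5, 42.3 and 38.4 in HPLM, and its log2 fold change by DESeq2 without that library was 1.20 ± 0.38 (adjusted p 0.00341). The list's median in the authors' deposited table was 0.11, beside 0.01 for all genes.

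In the list of other crosslinkers and membrane linkers 12 of 19 fell and 3 rose, with a median of -0.43 in the authors' deposited table. LIMA1, which encodes a LIM protein that stabilises filaments, fell from 3903, 3963 and 3764 normalised reads to 1156, 1147 and 1119 (log2 ratio -1.76 ± 0.03), a larger fall than in any of the 38 members. PLS1, a plastin gene, fell too (-1.25 ± 0.09). The spectrin gene SPTBN1 (0.63 ± 0.03) and LIMCH1 (0.60 ± 0.03), which encodes an activator of non-muscle myosin, rose. Among other focal adhesion genes 6 of 34 rose (17.6%) and 12 fell (35.3%), with a median of 0.02 in the authors' deposited table. The kinase gene SRC (-1.09 ± 0.10) and PDLIM7 (-0.90 ± 0.04) fell. The parvin gene PARVA (1.26 ± 0.16), a partner of ILK, and FERMT3 (1.70 ± 0.11), which encodes the kindlin typical of blood cells, rose. Without EMEM/F12 library 3, 12 rose and 11 fell.

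Nucleation genes rose in 10 of 26 cases (38.5%) and fell in 7 (26.9%), with a median of 0.10 in the authors' deposited table. Formins went both ways, with FMNL1 higher (1.09 ± 0.09) and DIAPH1 (-0.79 ± 0.02) and DIAPH3 (-0.83 ± 0.10) lower, and the WAVE complex gene CYFIP2 rose (0.50 ± 0.08). Of 24 genes for capping, disassembly and the monomer pool 7 rose (29.2%) and 6 fell (25.0%). Their median was 0.04 in the authors' deposited table, and both shares were near those of all genes. The LIM kinase genes, whose products inactivate cofilin, split, with LIMK2 higher (0.84 ± 0.03) and LIMK1 lower (-0.67 ± 0.04). TMSB10, which encodes a monomer-binding thymosin, rose (0.60 ± 0.13) and the adducin gene ADD3 fell (-0.87 ± 0.05). Of 9 muscle and neuronal relatives in the table none rose and 3 fell, namely CNN1 (-0.69 ± 0.15), CALD1 (-0.33 ± 0.07) and ACTC1, whose call was lost without EMEM/F12 library 3 (adjusted p 0.159). Without that library 1 rose, ACTG2 (log2 fold change 1.03 ± 0.10 by DESeq2, adjusted p 5.90e-26), and 2 fell. ACTC1 and ACTG2 are named here after their values were seen. The median of this list was -0.16 in the authors' deposited table.

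**Figure D5:**
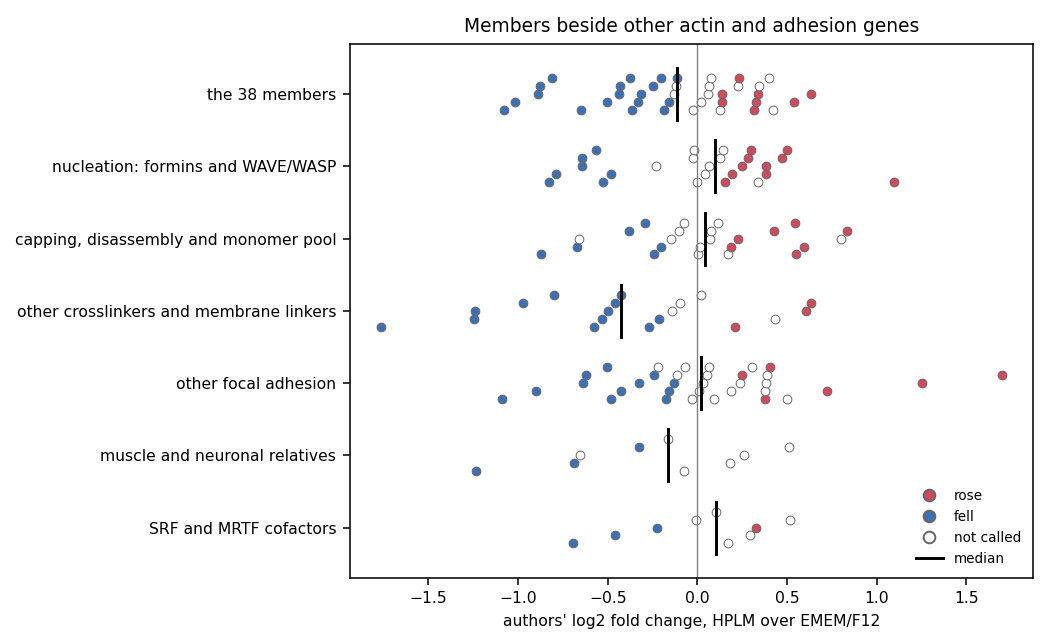
Each point is the log2 fold change of 1 gene in the authors' deposited table, coloured by its call, with a bar at the median, for the members and 6 of the lists. The members' median is -0.11, the list of other crosslinkers and membrane linkers has the lowest median (-0.43), and the other lists shown spread to both sides of 0.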

How the data were processed

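The submitters' processing notes name Trimmomatic 0.36, STAR 2.5.2b, Subread 1.5.2, DESeq2 and GRCh38, with no role or order. For annotation, strand setting and filters, the sources used here give nothing. Per the file headers, the deposited table lists log2 fold changes (HPLM against EMEM/F12), p-values and adjusted p-values. The signal in the 6 deposited library columns is a read count divided by a factor for that library. Whole reads were recovered for 100% of deposited values within 0.01 reads, on 16005 genes and 46 spike-ins. A rerun with DESeq2 1.42.0 gave 8908 called lines, all of them also called by the authors. The limit that 0 reads allow, 3 reads, equals 2.68 to 3.49 normalised reads and covers counting error only.

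Levels, SDs, log2 ratios of means and propagated SEs were computed with Python 3.11.15. Calls rest on the authors' DESeq2 test with adjustment over all lines and a limit of 0.05, and edgeR 4.0.16 was an alternative, both tested on simulated data. GENCODE release 29 gave coordinates, exon lengths, pseudogenes and overlaps.

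Members, lists and tests were chosen with earlier results of these data known. Library values are given for ACTB, ACTG1, MYH9, MYH10, TPM1 to TPM4, VCL, ILK and PTK2, and in each role for up to 2 members that rose and 2 that fell most at a mean of at least 100. From each related list described, up to 2 of each are named, with SRF and its cofactors. The genes of 1 further related list are in the totals, and that list is not reported here. Alternatives were edgeR, gene reads alone, spike-in scaling, recentring on the median gene, each library left out, the library number as a block, an adjusted p under 0.01, a log2 fold change of at least 0.5 and a minimum mean of 100.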

Additional observations from a re-analysis of the deposited data

How the results depend on the processing

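Of the 18 members that fell, 17 kept their direction and call under all alternatives run on single genes, and PFN1 did not. Of the 8 that rose, ACTR2, FLNC, TAGLN2, TLN1 and PXN did so, while ARPC2 and FLNA lost their call with spike-in scaling, and ILK without HPLM library 1 and with the library number as a block. Leaving out 1 library gave 7 to 13 members that rose and 17 to 18 that fell, and 34 to 52 related genes that rose and 48 to 52 that fell. The highest counts of rises came without EMEM/F12 library 3 (13 and 52). A log2 fold change of at least 0.5 left 2 members higher and 7 lower, and 14 related genes higher and 25 lower, by construction. Signs turned for ARPC1A with edgeR (0.0054) and for ARPC4 (-0.0038) and TPM3 (-0.040) with spike-in scaling, none of them called. Spike-in scaling moved the median of all genes by -0.06 on the log2 scale and called 3622 genes higher and 5144 lower, against 4293 and 4612 in the authors' deposited table. The replicate block on library number gave 7 members higher and 17 lower, with 3447 and 3750 of all genes. The numbers do not pair the libraries by the labels, and the correlations of same-numbered deviations were -0.08, -0.14 and -0.24. With 3 libraries a medium and no statement of separate cultures, small changes such as that of PFN1 are the least secure. GSN, with 53.8 normalised reads on average, is limited by depth.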
